A study of Mus musculus with 15 samples.

Results

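The 9 Toll-like receptor genes Tlr1, Tlr2, Tlr3, Tlr4, Tlr6, Tlr7, Tlr8, Tlr9 and Tlr13 and the adapter gene Myd88 were followed in mouse periprostatic fat, the white fat depot around the prostate. The 10 genes were chosen by symbol, and all 10 were found among the 23995 symbols listed in each of 15 RNA sequencing libraries. The groups, of 5 male C57BL/6J mice each, were a low fat diet group (LFD), a high fat diet group given a placebo pellet (HFD placebo) and a high fat diet group given an estradiol pellet (HFD estradiol). Diets held 10 kcal% fat (LFD) or 60 kcal% fat (HFD) and began at 6 weeks of age. After 12 weeks the HFD mice received a subcutaneous pellet, either placebo or 0.25 mg estradiol released over 60 days, and every group stayed on its diet for 8 more weeks until the stated age of 26 weeks. LFD mice had no implantation, and a comparison with that group therefore covers the diet and the implantation at once. The tissue is bulk fat, in which fewer cells of a type and less RNA per cell cannot be told apart.

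Toll-like receptors recognise molecules of microbes and of damaged cells. Tlr1, Tlr2, Tlr4 and Tlr6 act at the cell surface, where Tlr2 pairs with Tlr1 or Tlr6 to sense lipoproteins and Tlr4 senses lipopolysaccharide. Tlr3, Tlr7, Tlr8, Tlr9 and Tlr13 act in endosomes and sense nucleic acids. All but Tlr3 signal through the protein encoded by Myd88, which recruits IRAK kinases and leads to NF-kB and IRF activation, while Tlr3 uses the adapter encoded by Ticam1. Macrophages carry most of these receptors, and adipocytes are known to express Tlr4.

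The start sites of some of these genes show how differently built the upstream sequences of members can be, so 4 of them are printed. They were taken from the RefSeq promoter table for GRCm38.p6, in which 8 of the 10 members had an entry. Tlr13 and Tlr8 had the highest ratios between HFD placebo and LFD among the 10 members, Tlr2 is the shared partner of the lipoprotein receptors, and Myd88 is the adapter. Capitals mark matches, on either strand, to 1 of 5 motifs in the 250 bases before the start site. Each line gives the part of that window outside any GENCODE exon, 5′ to 3′ on the gene's strand.
Tlr13, chrX:106143025-106143203, plus strand: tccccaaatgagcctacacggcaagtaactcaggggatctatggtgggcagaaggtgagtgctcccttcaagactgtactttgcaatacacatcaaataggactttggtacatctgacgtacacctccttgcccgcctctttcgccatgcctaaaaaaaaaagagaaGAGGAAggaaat
Tlr8, chrX:167264330-167264579, minus strand: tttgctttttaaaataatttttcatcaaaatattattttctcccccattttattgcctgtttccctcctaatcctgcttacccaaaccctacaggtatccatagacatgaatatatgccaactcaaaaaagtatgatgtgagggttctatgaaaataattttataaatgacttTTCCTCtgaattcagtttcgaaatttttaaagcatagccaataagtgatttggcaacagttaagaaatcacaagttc
Tlr2, chr3:83841768-83841858, minus strand: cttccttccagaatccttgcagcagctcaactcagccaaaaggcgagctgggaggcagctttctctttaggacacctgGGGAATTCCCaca
Myd88, chr9:119340042-119340268, minus strand: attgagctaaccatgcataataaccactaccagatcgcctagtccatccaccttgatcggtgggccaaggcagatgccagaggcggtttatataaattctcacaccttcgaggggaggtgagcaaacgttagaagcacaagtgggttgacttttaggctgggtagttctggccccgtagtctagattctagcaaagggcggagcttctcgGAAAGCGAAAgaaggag

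In the Tlr13 and Tlr8 lines the capitals are the core GAGGAA bound by PU.1, a myeloid transcription factor, which was also found before a start site of Tlr1 and before Tlr9. That core occurs in 23.3% of the 32851 mouse promoter windows of the same length. The capitals in the Tlr2 line are the NF-kB consensus, found also before Tlr3 and in 5.0% of all windows. Myd88 holds the interferon-stimulated response element, as does a start site of Tlr6 with 2 overlapping matches, against 2.98% of all windows. Tlr9 holds the AP-1 site TGANTCA, present in 6.75% of windows, and overlaps no other match there. The palindromic estrogen response element was in none of the 10 member windows and in 0.0639% of all windows. Such matches describe letters only.

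Positions are those of GENCODE on GRCm38, the assembly that mm10 names. Tlr1 (chr5:64924679-64933563) and Tlr6 (chr5:64952031-64960097) are neighbours on the minus strand and share sequence: of the 75-base windows of the longest transcripts, 340 of 2951 in Tlr1 (11.5%) and 340 of 3603 in Tlr6 (9.44%) occur in the other gene. No source used here says how reads were split between them, so their separate levels are uncertain. Tlr7 (chrX:167304929-167330558) and Tlr8 (chrX:167242696-167264329) are also neighbours on the minus strand, and Tlr13 (chrX:106143204-106160493) lies on the plus strand of the same chromosome. No 75-base window was shared between any other pair of members. Tlr2 lies at chr3:83836272-83841767, Tlr4 at chr4:66827584-66930284, Tlr3 at chr8:45395665-45411080 and Tlr9 at chr9:106222598-106226883. Myd88, at chr9:119335934-119341411, overlaps Slc22a14 on its own strand and Acaa1a on the other, and Tlr3 overlaps the antisense gene Gm45542. No source used here says whether counting used strand.

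Values were FPKM, fragments counted per kilobase of transcript and adjusted for the size of the library. The sum of FPKM ran from 34449 to 105910 over libraries, so each library was divided by a median-of-ratios factor (0.481 to 3.23), which gives the scaled FPKM used below. A scaled FPKM of 1 in a transcript of 2 kb was estimated to stand for 20.6 to 40.3 fragments in LFD libraries, 35.3 to 223 with the placebo and 36.9 to 96.0 with estradiol, so low values are least precise in LFD. LFD libraries were all on sequencing lane 5 and HFD estradiol libraries all on lane 6, per the column headers, while HFD placebo libraries 1 to 3 were on lane 5 and 4 and 5 on lane 6. Summed adipocyte markers reached 1152 to 1750 in LFD mice, 785 to 1324 with the placebo and 1146 to 1638 with estradiol, and those of prostate epithelium to at most 1.87.

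Members were expressed at low levels, and their order differed between groups. In LFD, Tlr4 was highest (1.12 ± 0.184 scaled FPKM, SD, n = 5) and Myd88 next (0.681 ± 0.195). Tlr6 was lowest there (0.120 ± 0.0418). Tlr4 exceeded Myd88 in 5 of 5 LFD mice without overlap, and every later pair of neighbours in the LFD order overlapped. In HFD placebo, Tlr8 led (2.82 ± 0.701), followed by Tlr13 (1.88 ± 0.465) and Tlr4 (1.78 ± 0.195). Tlr8 was above Tlr13 in 5 of 5 HFD placebo mice, although the ranges overlapped, as did those of all later neighbours. With estradiol, Tlr4 (1.50 ± 0.278) and Myd88 (0.861 ± 0.237) again came first, Tlr8 came after them (0.783 ± 0.304) and Tlr6 was last (0.106 ± 0.0198). In that group Tlr3 and Tlr2 were the neighbours in the order whose ranges did not overlap.

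**Figure D1:**
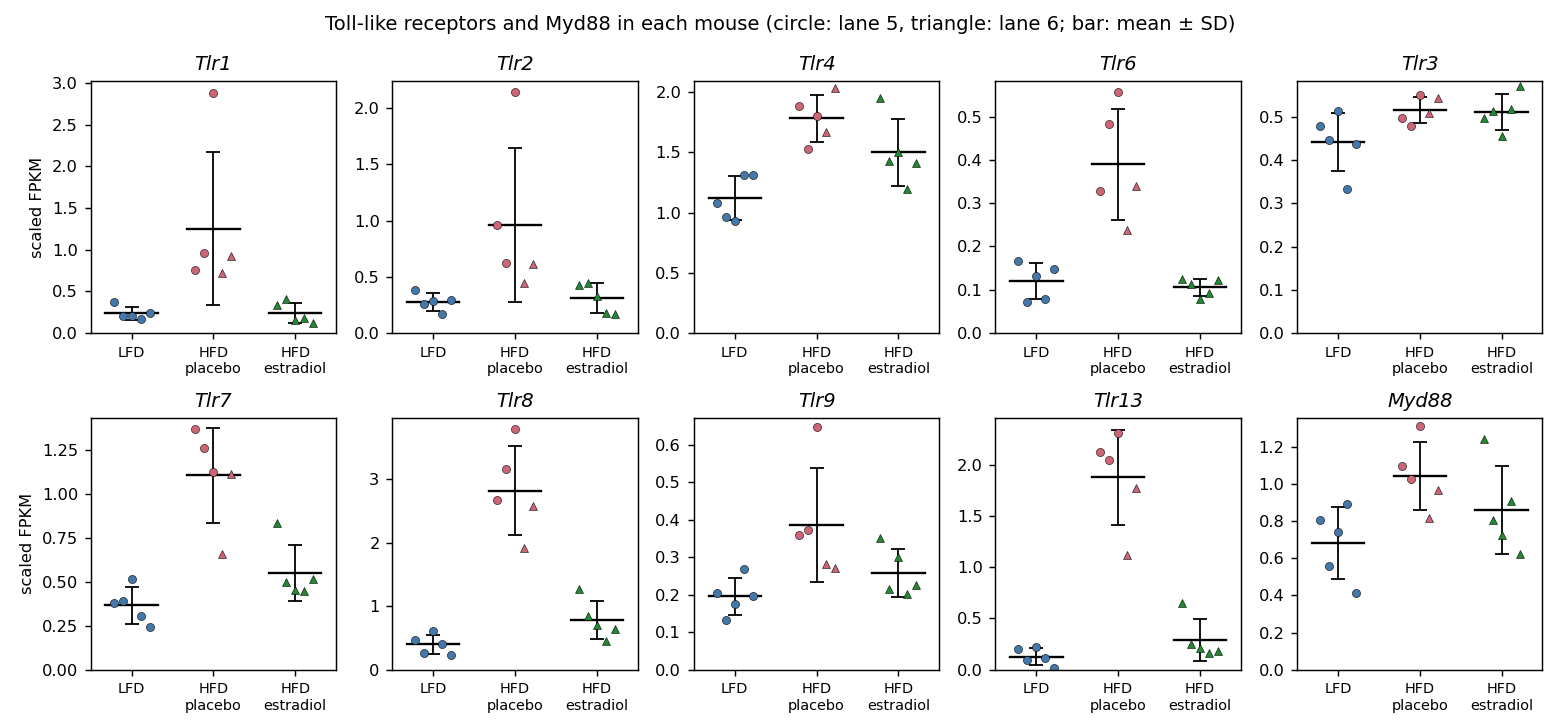
Scaled FPKM (vertical axes, from 0) of the 10 genes in each of 5 LFD, 5 HFD placebo and 5 HFD estradiol mice; circles are libraries on lane 5, triangles those on lane 6, and bars are mean ± SD. Tlr8 reached 1.91 to 3.79 in HFD placebo against 0.239 to 0.606 in LFD, while Tlr3 stayed between 0.334 and 0.571 in all libraries.

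Members were tested in 2 ways with limma, which fits all genes together, calling a gene at a Benjamini-Hochberg adjusted p below 0.05. The planned test took the 5615 genes that reached a scaled FPKM of 1 in 5 or more libraries, on log2(scaled FPKM + 1). Only Tlr4, Tlr8 and Tlr13 passed that filter. Tlr13 passed it through the 5 HFD placebo libraries alone and Tlr8 through those and 1 HFD estradiol library, so a difference was built into their being tested there. A second test, added after the data were seen, took the 12693 genes at 0.1 or more in at least 5 libraries, on log2(scaled FPKM + 0.1), and is called the low-level test below. All 10 members entered it. Of the members, 8 were at 0.1 or more in all 15 libraries, Tlr13 in 13 and Tlr6 in 11, each of these in at least 3 mice of every group. The 7 members below the planned filter were also tested singly by an exact two-sided permutation test of the mean scaled FPKM, for which the smallest possible p is 0.0079. A fold change on either log2 scale understates the change of a low gene.

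The first comparison, HFD placebo minus LFD, asks what the high fat diet did together with the placebo pellet. In the low-level test 9 of the 10 members rose and none fell, and the exception was Tlr3. The rises ran from 1.53-fold for Myd88 to 14.6-fold for Tlr13 in mean scaled FPKM. Over all genes in that test 16.1% were called higher, and in the planned test 21.3%, where Tlr4 was called higher. Tlr8 and Tlr13 were also called higher in the planned test. They had passed its filter only with the HFD placebo libraries, so those calls were favoured in advance and add no support. The median log2 fold change of the 10 members was 1.23, against -0.026 over all 12693 genes. In 8 members every HFD placebo mouse lay above every LFD mouse, a separation that 10.8% of all genes showed in that direction. The same 9 members were called within lane 5, where 3 HFD placebo libraries face 5 LFD libraries, with log2 rises from 0.60 for Tlr4 to 3.39 for Tlr13.

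Among the surface receptors, Tlr4 had the highest level in LFD and the smallest rise. Tlr4 measured 1.08, 0.960, 0.933, 1.31 and 1.31 in LFD mice 1 to 5, 1.89, 1.53, 1.80, 1.66 and 2.04 in HFD placebo mice, and 1.95, 1.43, 1.50, 1.20 and 1.41 in HFD estradiol mice. All HFD placebo mice were above all LFD mice, while the HFD estradiol mice spanned the gap and reached into both ranges. The log2 fold change over LFD was 0.39 (SE 0.080, limma adjusted p = 9.5e-04) in the planned test and 0.63 (limma adjusted p = 0.0013) in the low-level test.

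Tlr1, which recognises triacylated lipoproteins with Tlr2, was 0.371, 0.207, 0.203, 0.163 and 0.242 in LFD, 0.759, 0.960, 2.89, 0.725 and 0.928 in HFD placebo, and 0.334, 0.405, 0.161, 0.184 and 0.116 in HFD estradiol. HFD placebo mouse 3 stood far above the others of its group, and the 4 others were still above every mouse of the other groups. Tlr2 was 0.387, 0.262, 0.289, 0.165 and 0.290 in LFD, 0.962, 0.627, 2.14, 0.449 and 0.618 in HFD placebo, and 0.430, 0.442, 0.327, 0.175 and 0.165 in HFD estradiol. Here too mouse 3 was highest, and the lowest HFD placebo mouse was only just above the highest mouse of the other groups. Tlr6, the partner of Tlr2 for diacylated lipoproteins, lay between 0.0724 and 0.167 in LFD, between 0.238 and 0.558 in HFD placebo and between 0.0790 and 0.125 in HFD estradiol. LFD and HFD estradiol mice overlapped fully for Tlr6, and HFD placebo mice lay above both.

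For these 3 lipoprotein receptors the low-level test gave log2 rises over LFD of 1.84 for Tlr1 (SE 0.32, limma adjusted p = 3.3e-04), 1.32 for Tlr2 (SE 0.32, limma adjusted p = 0.0048) and 1.14 for Tlr6 (SE 0.19, limma adjusted p = 2.4e-04). Each reached the exact permutation p of 0.0079. Without HFD placebo mouse 3 the log2 rises were 1.50, 1.00 and 1.02, and all 3 were still called.

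Of the endosomal receptors, Tlr13, a receptor for bacterial ribosomal RNA, had the largest rise among the 10. Tlr13 was 0.200, 0.0918, 0.219, 0.115 and 0.0169 in LFD, 2.13, 2.05, 2.31, 1.12 and 1.78 in HFD placebo, and 0.650, 0.253, 0.214, 0.161 and 0.180 in HFD estradiol. The lowest HFD placebo mouse was above every mouse of the other groups, and HFD estradiol mouse 1 stood apart from the rest of its group. In LFD these values rest on an estimated 1.02 to 17.3 fragments per library. The log2 fold change was 3.16 (SE 0.30, limma adjusted p = 1.7e-06) in the low-level test and 1.34 (SE 0.13, limma adjusted p = 1.3e-06) in the planned one.

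Tlr8, a sensor of RNA degradation products, was 0.468, 0.265, 0.606, 0.408 and 0.239 in LFD, 2.66, 3.16, 3.79, 1.91 and 2.57 in HFD placebo, and 1.27, 0.842, 0.708, 0.455 and 0.644 in HFD estradiol. No HFD placebo value overlapped another group, and HFD estradiol mouse 1 was again the highest of its group. Its mean rose 7.09-fold over LFD, with a log2 fold change of 2.57 (SE 0.24, limma adjusted p = 1.4e-06) in the low-level test and 1.44 (SE 0.13, limma adjusted p = 1.0e-06) in the planned one.

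Tlr7, which senses single-stranded RNA, was 0.379, 0.389, 0.518, 0.303 and 0.241 in LFD, 1.37, 1.26, 1.13, 0.661 and 1.11 in HFD placebo, and 0.833, 0.501, 0.452, 0.450 and 0.518 in HFD estradiol. Every HFD placebo mouse exceeded every LFD mouse, and HFD estradiol mouse 1 was above HFD placebo mouse 4. The log2 rise over LFD was 1.37 (SE 0.20, limma adjusted p = 7.3e-05). Tlr9, the receptor for unmethylated CpG DNA, lay between 0.134 and 0.269 in LFD, between 0.272 and 0.646 in HFD placebo and between 0.202 and 0.350 in HFD estradiol. HFD placebo and LFD mice were separated by a narrow gap for Tlr9, and HFD placebo mouse 3 was highest. Its log2 rise was 0.68 (SE 0.19, limma adjusted p = 0.013), with an exact permutation p of 0.0079 for both genes.

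Tlr3, the sensor of double-stranded RNA that does not use Myd88, was 0.478, 0.446, 0.514, 0.334 and 0.438 in LFD, 0.498, 0.480, 0.550, 0.509 and 0.543 in HFD placebo, and 0.497, 0.514, 0.456, 0.518 and 0.571 in HFD estradiol. The groups overlapped, and the lowest mouse of all was in LFD. Its log2 difference between HFD placebo and LFD was 0.19 (95% interval -0.043 to 0.43, limma adjusted p = 0.21). Tested singly, the difference in mean of 0.0738 gave an exact permutation p of 0.048, which went above 0.05 when any of 7 single libraries was left out, with values of 0.071 to 0.103. Without the scaling the median of all genes moved to 0.96 and Tlr3 was called at 1.16 (limma adjusted p = 0.029), and with a constant sum per library these were 0.35 and 0.57 (limma adjusted p = 0.045).

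Myd88 was 0.804, 0.556, 0.743, 0.892 and 0.411 in LFD, 1.10, 1.02, 1.31, 0.815 and 0.966 in HFD placebo, and 1.24, 0.806, 0.726, 0.909 and 0.623 in HFD estradiol. The groups overlapped, with HFD placebo mouse 4 below the highest LFD mouse and HFD estradiol mouse 1 near the top of all 15. The log2 rise over LFD was 0.57 (SE 0.19, limma adjusted p = 0.030, exact permutation p = 0.016). That call was lost when LFD mouse 2 or 5, or HFD placebo mouse 1, 2 or 3, was left out, with log2 values of 0.43 to 0.58 and limma adjusted p from 0.051 to 0.081.

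**Figure D2:**
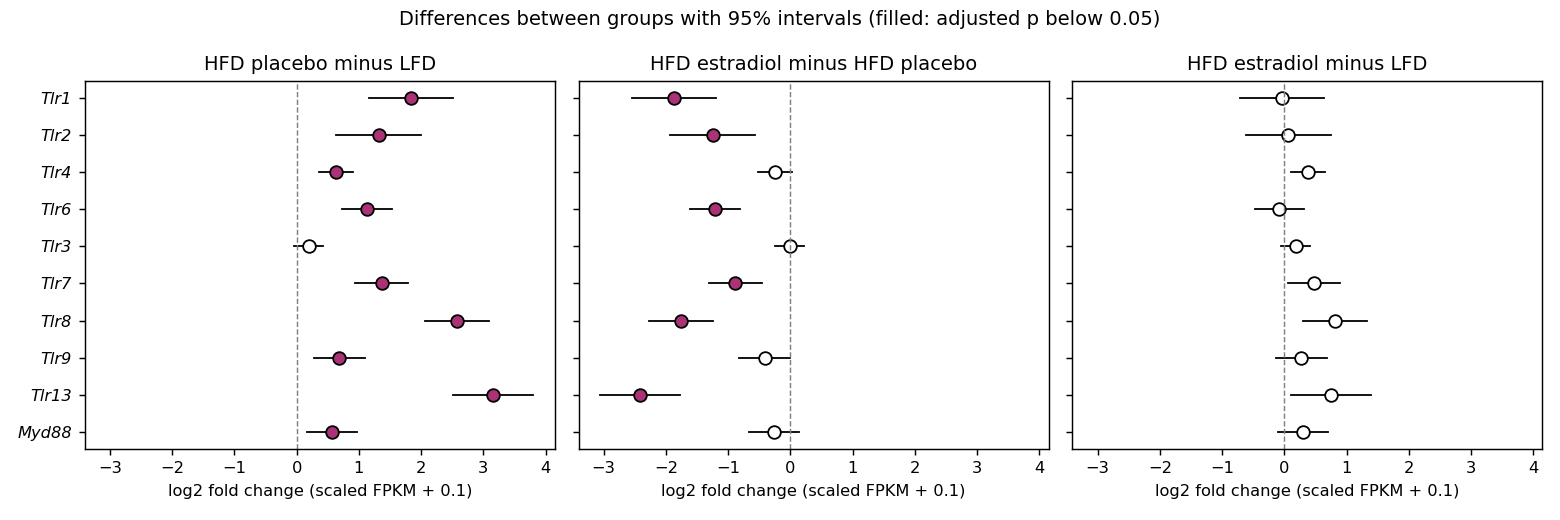
Log2 fold changes of the 10 genes in the low-level test (horizontal axis, log2(scaled FPKM + 0.1)) with 95% intervals for the 3 comparisons of 5 against 5 mice; filled points have a limma adjusted p below 0.05. Tlr13 at 3.16 and Tlr8 at 2.57 lie farthest right in HFD placebo minus LFD, and none is filled in HFD estradiol minus LFD.

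The second comparison, HFD estradiol minus HFD placebo, asks what estradiol changed on the same diet with a pellet in both groups. It shares the HFD placebo mice with the first comparison. Estradiol-treated mice had lower Tlr1, Tlr2, Tlr6, Tlr7, Tlr8 and Tlr13, so 6 of the 10 members fell and none rose in the low-level test. Mean levels were 0.156 of the placebo level for Tlr13, 0.192 for Tlr1, 0.272 for Tlr6, 0.278 for Tlr8, 0.321 for Tlr2 and 0.498 for Tlr7. Over all genes 11.5% were called lower in that test, and 16.0% in the planned test, in which Tlr4 was not called. Tlr8 and Tlr13 were called lower in the planned test. They had passed its filter only with the HFD placebo libraries, where they were high, so those calls add no support. The median log2 fold change was -1.05 over the members and 0.029 over all genes. For 5 members, the called ones other than Tlr7, every HFD estradiol mouse lay below every HFD placebo mouse, as for 8.66% of all genes.

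Tlr13 fell by 2.42 on the log2 scale (SE 0.30, limma adjusted p = 4.6e-05) and Tlr8 by 1.75 (SE 0.24, limma adjusted p = 9.4e-05). Tlr1 fell by 1.87 (SE 0.32, limma adjusted p = 5.0e-04) and Tlr6 by 1.22 (SE 0.19, limma adjusted p = 2.5e-04). In these 4 genes the fall was also called with sequencing lane as a term and within lane 6, where 2 HFD placebo libraries face 5 HFD estradiol libraries. Tlr2 fell by 1.25 (SE 0.32, limma adjusted p = 0.010) but its log2 difference was -0.69 with lane as a term (limma adjusted p = 0.36) and within lane 6 (limma adjusted p = 0.24). Tlr7 fell by 0.89 (SE 0.20, limma adjusted p = 0.0041), and its difference was -0.59 with lane as a term and within lane 6 (limma adjusted p = 0.19 in both). Tlr7 was also not called on FPKM as deposited (-1.21, limma adjusted p = 0.11). The exact permutation p was 0.0079 for Tlr1, Tlr2 and Tlr6 and 0.016 for Tlr7. For Tlr2 it was 0.063 without HFD estradiol mouse 3, 4 or 5. Without HFD placebo mouse 3 the difference in mean was -0.603 in place of -1.01 for Tlr1 and -0.356 in place of -0.652 for Tlr2, with an exact permutation p of 0.0079 for both.

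The 4 members not called in this comparison were Tlr4, Myd88, Tlr9 and Tlr3. Tlr4 differed by -0.25 on the log2 scale (95% interval -0.52 to 0.025, limma adjusted p = 0.20). Without HFD estradiol mouse 1, Tlr4 was called in the planned test at -0.22 (limma adjusted p = 0.033). Myd88 differed by -0.27 (95% interval -0.67 to 0.14, limma adjusted p = 0.35) and Tlr9 by -0.41 (95% interval -0.82 to 0.000145, limma adjusted p = 0.15). With lane as a term these differences were -0.072 for Myd88 (limma adjusted p = 0.93) and -0.090 for Tlr9 (limma adjusted p = 0.90). Tested singly, Myd88 gave an exact permutation p of 0.21 and Tlr9 of 0.087, and without HFD estradiol mouse 1 these were 0.032 and 0.048. Tlr9 also gave 0.048 without HFD placebo mouse 5. Without HFD placebo mouse 3 the differences in mean were smaller, -0.115 in place of -0.182 for Myd88 (exact permutation p = 0.39) and -0.0631 in place of -0.128 for Tlr9 (exact permutation p = 0.175). On the log2 scale Tlr9 was then at -0.24, and Myd88 was at -0.17 without HFD estradiol mouse 5. The difference for Tlr3 was -0.012 (95% interval -0.25 to 0.22, limma adjusted p = 0.96).

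In the third comparison, HFD estradiol minus LFD, no member was called by either limma test, against 7.69% of genes called in the planned test and 3.9% in the low-level test. At an unadjusted exact permutation p under 0.05, Tlr7 alone of the 7 singly tested members differed, with a mean of 0.551 ± 0.160 against 0.366 ± 0.104 (p = 0.040), and this was lost without any of 7 single libraries. Intervals on the log2 scale lay above 0 for Tlr8 (0.82, 95% interval 0.31 to 1.33, limma adjusted p = 0.072), Tlr13 (0.74, 0.10 to 1.39, limma adjusted p = 0.21), Tlr7 (0.48, 0.058 to 0.90, limma adjusted p = 0.22) and Tlr4 (0.39, 0.11 to 0.66, limma adjusted p = 0.11). Without HFD estradiol mouse 1 the difference for Tlr13 was 0.48 (limma adjusted p = 0.41). Tlr8 was called without LFD mouse 3 (0.96, limma adjusted p = 0.036) and without HFD estradiol mouse 4 (0.97, limma adjusted p = 0.039). For Tlr1 the interval was -0.70 to 0.64 and for Tlr6 -0.48 to 0.32, and a p that misses the threshold does not show equal levels. The groups share no lane. With lane as a term, which the HFD placebo libraries on both lanes allow, the log2 differences were 1.32 for Tlr8 (limma adjusted p = 0.16) and 1.32 for Tlr13 (limma adjusted p = 0.27), and no member was called.

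Members changed relative to each other as well. Ratios of 5 pairs were compared within libraries, on a log2 scale with 0.1 added, by exact two-sided permutation tests adjusted over 15 comparisons. The Tlr7 to Tlr8 ratio, between the neighbouring RNA sensors, averaged -0.068 ± 0.30 in LFD, -1.27 ± 0.28 in HFD placebo and -0.41 ± 0.26 in HFD estradiol (log2, SD, n = 5). Tlr8 thus gained on Tlr7 in HFD placebo, by 1.21 against LFD and by 0.87 against HFD estradiol, and neither contrast overlapped (exact permutation adjusted p = 0.024 for both). HFD placebo mice 4 and 5, on lane 6 with the HFD estradiol mice, were at -1.40 and -1.14, and the lowest HFD estradiol mouse was at -0.65. Groups that do not overlap stay apart within any lane, so these values add no support.

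Tlr2 changed relative to Tlr3, the member with no call. Their log2 ratio averaged -0.53 ± 0.18 in LFD, 0.59 ± 0.76 in HFD placebo and -0.65 ± 0.56 in HFD estradiol (exact permutation adjusted p = 0.024 for both contrasts with HFD placebo). Without HFD placebo mouse 3 the contrast with estradiol was -0.94 and no longer passed (exact permutation adjusted p = 0.079). The contrast with LFD did not pass without LFD mouse 3, 4 or 5 (1.08 to 1.14, exact permutation adjusted p = 0.060 in each). Tlr1 gained on Tlr6 in HFD placebo over LFD by 0.70 (exact permutation adjusted p = 0.024), which did not pass without HFD placebo mouse 3 (0.48, exact permutation adjusted p = 0.060), without LFD mouse 3, 4 or 5, or with 0.01 added in place of 0.1 (0.56, exact permutation adjusted p = 0.14). Since Tlr1 and Tlr6 share sequence, that ratio is uncertain.

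Tlr2 relative to Tlr4 was higher by 0.68 in HFD placebo than in LFD (exact permutation adjusted p = 0.18) and lower by 1.00 with estradiol (exact permutation adjusted p = 0.060), neither passing. Without HFD placebo mouse 3, the highest of its group, the former was 0.37 (exact permutation adjusted p = 0.275). The latter passed without LFD mouse 1, which enters it only through the adjustment over 15 comparisons (exact permutation adjusted p = 0.045). Myd88 relative to Ticam1 differed in no comparison (exact permutation adjusted p from 0.13 to 0.19), although without LFD mouse 1 both contrasts with LFD passed, at 0.78 and 0.97 (exact permutation adjusted p = 0.024). Without LFD mouse 5 the HFD placebo contrast went from 0.52 to 0.33 (exact permutation adjusted p = 0.34). No ratio was called between HFD estradiol and LFD with all mice.

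**Figure D3:**
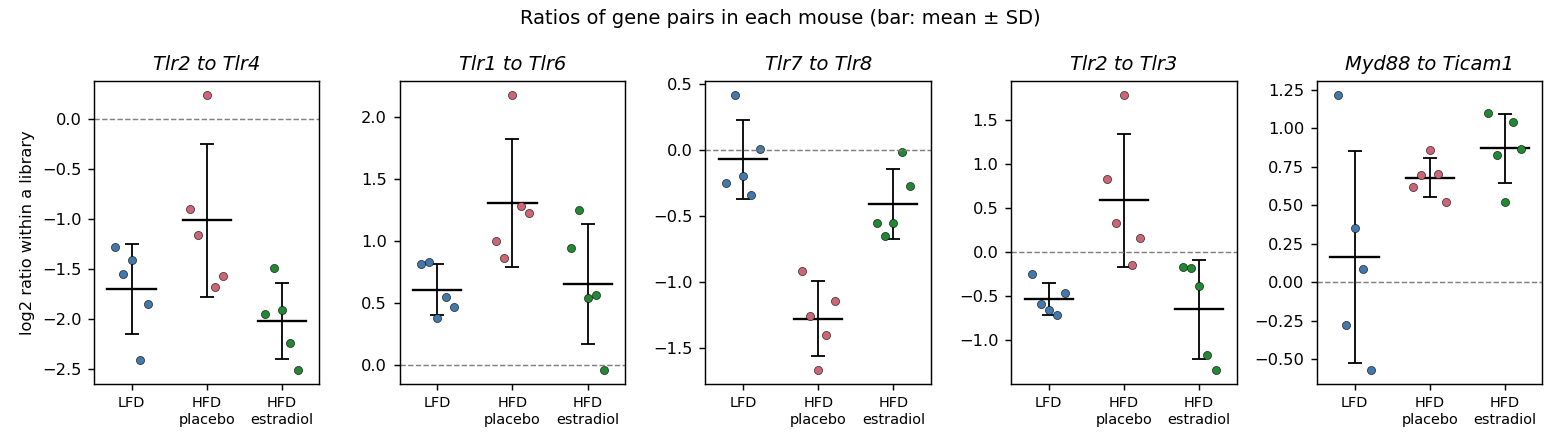
Log2 ratio of 5 gene pairs within each library (vertical axes, 0.1 added to each scaled FPKM) for 5 mice per group, with mean ± SD. The Tlr7 to Tlr8 ratio of all HFD placebo mice, -1.66 to -0.91, lies below both other groups.

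The libraries that stood out did so in many members together. HFD placebo mouse 3 was the highest of its group in 8 of the 10 genes and HFD placebo mouse 4 the lowest in 7. In HFD estradiol, mouse 1 was highest in 7 and mouse 4 lowest in 5. Macrophage markers had the same extremes in these HFD groups, summing to 480 in HFD placebo mouse 3, 162 in mouse 4 and 171 in HFD estradiol mouse 1. The macrophage marker Emr1 was 35.9 in HFD placebo mouse 3 against 5.58 to 9.72 in the rest of that group. In LFD the extremes differed: mouse 3 was highest in 4 members and mouse 5 lowest in 4. There the macrophage markers summed highest in mouse 1 (121) and lowest in mouse 2 (47.8). With HFD placebo mouse 3 and HFD estradiol mouse 1 both left out, the same number of members, 6, was called lower with estradiol in the low-level test.

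Markers of cells that carry these receptors moved between the groups. Of 11 macrophage markers, 9 rose in HFD placebo over LFD, and 7 fell and 1 rose with estradiol, in the low-level test, against 16.1% of all genes higher on the diet and 11.5% lower and 9.75% higher with estradiol. Their summed level was 47.8 to 121 in LFD mice, 162 to 480 with the placebo and 73.1 to 171 with estradiol, and none was at 0 in any whole group. Of these markers 4 were higher in HFD estradiol than in LFD, against 2.15% of all genes. B cell markers, whose cells are known for Tlr7 and Tlr9, went the other way, with 5 of 5 lower in HFD placebo than in LFD, against 15.6% of all genes, and summed to 4.58 to 9.72 in LFD mice, 0.554 to 4.57 with the placebo and 1.18 to 6.67 with estradiol. Of 6 tested monocyte and dendritic cell markers 1 rose on the diet, a share near that of all genes, and with estradiol 2 fell and 2 rose. The summed level of the 9 listed was nonetheless higher with the placebo, at 6.49 to 8.93. It was 1.87 to 4.98 in LFD mice and 3.13 to 5.46 with estradiol. Adipocyte markers fell in 6 of 6 and rose with estradiol in 5 of 6. The part of these cells in the differences of the members was not tested.

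Genes whose log2 levels followed a member most closely over the 15 libraries were sought among 5477 genes for each of the 3 members in the planned test. The points share their groups and libraries, so these coefficients are descriptions. Tlr8 was followed by Tyrobp, which encodes an ITAM adapter of myeloid cells (Pearson r = 0.992 over 15 libraries, 0.928 after group means were subtracted), Pld3 (0.988 and 0.869) and Fcgr3, an Fc receptor gene (0.987 and 0.887). For Tlr13 the closest were Myo1f (0.994 and 0.941), Atf3 (0.993 and 0.933) and Nceh1 (0.992 and 0.910). Tlr4 was followed less closely, by Cygb (0.915 and 0.765), Scamp2 (0.897 and 0.695) and Rpl15 (0.895 and 0.766).

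The rest of the pathway was described from 9 lists of 79 genes, chosen with earlier results of these data known. In the low-level test 70 were tested, of which 28 rose and 2 fell in HFD placebo over LFD, and 24 fell and 2 rose with estradiol. Of the 70, 6 would have missed the filter without the HFD placebo libraries, so a difference was built into their being tested, and they make up 6 of the 28 rises and 5 of the 24 falls. Over all genes of that test 16.1% rose and 15.6% fell on the diet, and 11.5% fell and 9.75% rose with estradiol. The median log2 fold changes of the 70 were 0.41 and -0.32. Other Toll-like receptors were scarce: Tlr5, the flagellin receptor, measured 0.317 ± 0.0792 in LFD and 0.310 ± 0.105 in HFD placebo, Tlr11 0.0618 ± 0.0466 and 0.136 ± 0.0463, and Tlr12 0.0199 ± 0.0122 and 0.0172 ± 0.0194. Tlr5 and Tlr11 were tested and not called in any comparison, and Tlr12 was below the filter.

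Co-receptors and ligand carriers rose on the diet in 4 of 6 genes and fell with estradiol in 3 of 6. Ly86, which encodes the partner of Cd180, had a log2 rise of 1.38 (limma adjusted p = 5.5e-05, planned test). Cd180, Cd14, Pik3ap1, Irf8, Irf5, Inpp5d and Ccl2 passed the planned filter only with the help of the HFD placebo libraries, so their values here and below are from the low-level test, whose filter they passed without that group. Log2 values of the other genes named here and below are from the planned test, with 1 added, and are not comparable in size with these. Counts per list are from the low-level test. They are to be read against its shares over all genes, and were not tested against them. Cd180 rose by 1.44 (limma adjusted p = 1.7e-04) and fell by 1.79 with estradiol (limma adjusted p = 5.3e-05). Cd14, the carrier of lipopolysaccharide to Tlr4, rose by 1.20 (limma adjusted p = 0.015) and fell by 1.17 (limma adjusted p = 0.024). In the planned test with lane as a term the estradiol differences of Cd14 (-0.38, limma adjusted p = 0.41) and Ly86 (-0.75, limma adjusted p = 0.086) did not pass. Lbp, a secreted lipopolysaccharide-binding protein gene, rose by 1.25 (limma adjusted p = 8.1e-05), was not called lower with estradiol (-0.35, limma adjusted p = 0.19) and was above LFD in estradiol-treated mice (0.90, limma adjusted p = 0.0089), a call lost with lane as a term (0.61, limma adjusted p = 0.32).

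Among genes that fold and sort the receptors, Unc93b1, which carries the endosomal receptors to their compartment, averaged 2.96 ± 0.760 in LFD and 8.28 ± 2.62 in HFD placebo, a log2 rise of 1.21 (limma adjusted p = 8.9e-05). Unc93b1 fell by 0.96 with estradiol (limma adjusted p = 0.0010), and was at -0.69 with lane as a term (limma adjusted p = 0.063). Cnpy3, a co-chaperone gene, rose by 0.27 (limma adjusted p = 0.014), and Hsp90b1, the gene of the folding chaperone it works with, was at 0.14 (limma adjusted p = 0.25). In this list 2 of 4 rose and 1 of 4 fell with estradiol.

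Of the adapters 4 of 5 were tested, 2 rose on the diet and 1 fell with estradiol. Pik3ap1, which links receptors to PI3 kinase, averaged 0.429 ± 0.192 in LFD and 2.82 ± 1.47 in HFD placebo (log2 rise 2.41, limma adjusted p = 1.7e-05) and fell by 1.80 with estradiol (limma adjusted p = 4.5e-04). Kinases and ubiquitin ligases downstream of Myd88 were mixed, with 5 of 17 higher and 2 lower on the diet and 3 lower and 1 higher with estradiol. The shares over all genes of the low-level test were 16.1% higher and 15.6% lower on the diet. With estradiol they were 11.5% lower and 9.75% higher. Whether the counts of this list differ from those shares was not tested. The planned test took 9 of the 17, of which 3 were higher and 1 lower on the diet. Among all 5615 genes of the planned test 1197 were higher and 1234 lower. In that test Irak3, an inhibitory IRAK, rose by 0.39 (limma adjusted p = 0.024), as did Irak2 by 0.26 (limma adjusted p = 0.048) and the kinase gene Tbk1 by 0.21 (limma adjusted p = 0.035). These calls were close to the threshold and were lost under 5 alternatives for Irak3, 18 for Irak2 and 11 for Tbk1, with limma adjusted p up to 0.058, 0.20 and 0.11. Irak1, which Myd88 recruits, fell by 0.27 on the diet (limma adjusted p = 0.011), a direction that turned when libraries were not scaled or were scaled to a constant sum. The call was also lost with lane as a term (-0.22, limma adjusted p = 0.059) and within lane 5 (limma adjusted p = 0.067).

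Transcription factor genes of the pathway rose in 4 of 9 and fell with estradiol in 3 of 9. Irf8 rose by 1.95 (limma adjusted p = 1.6e-05) and Irf5, which Myd88 activates, by 1.70 (limma adjusted p = 3.6e-04), and with estradiol Irf8 fell by 1.54 (limma adjusted p = 2.9e-04) and Irf5 fell by 1.55 (limma adjusted p = 0.0013). In the planned test with lane as a term the estradiol difference of Irf5 was -0.67 (limma adjusted p = 0.051). The NF-kB subunit genes Nfkb1 (0.10, limma adjusted p = 0.36) and Rela (0.07, limma adjusted p = 0.44) were not called on the diet. The list of negative regulators, which here includes Lgmn, rose in 3 of 9 genes and fell with estradiol in 5 of 9. Of all genes in the low-level test 16.1% rose on the diet and 11.5% fell with estradiol. Lgmn is no plain inhibitor, since its protease also matures endosomal receptors. Lgmn averaged 3.76 ± 0.891 in LFD and 23.3 ± 5.45 in HFD placebo (log2 rise 2.34, limma adjusted p = 5.8e-07) and fell by 1.49 with estradiol (limma adjusted p = 4.2e-05). Inpp5d, a lipid phosphatase gene, rose by 1.48 (limma adjusted p = 5.8e-05) and fell by 1.12 (limma adjusted p = 0.0012). Tollip (0.12, limma adjusted p = 0.15) and Trafd1 (0.14, limma adjusted p = 0.29) were not called on the diet, and Tollip fell by 0.23 with estradiol (limma adjusted p = 0.014), lost with lane as a term (-0.16, limma adjusted p = 0.24).

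Genes that the receptors are known to induce rose in 7 of 12 tested and fell with estradiol in 6 of 12. Of the 12, 5 (Tnf, Il10, Ccl3, Ccl4 and Cxcl2) were tested only because of their HFD placebo values. All 5 are among the 7 rises, so the counts of this list are given as a description. Ccl2, a monocyte chemokine gene, averaged 0.543 ± 0.459 in LFD and 4.21 ± 1.47 in HFD placebo, rose by 2.95 on the log2 scale (limma adjusted p = 1.4e-04) and fell by 2.85 with estradiol (limma adjusted p = 3.3e-04). Ifnb1 was at 0 in all libraries. Receptors and ligands of the interleukin 1 family, which also use Myd88, rose in 1 of 7 tested, a share near the 16.1% of all genes. With estradiol 2 of the 7 fell and 1 rose. The gene that rose on the diet, chosen here after its values were seen, was Il1rn, the interleukin 1 receptor antagonist, at 0.0360 ± 0.0478 in LFD, 1.91 ± 0.821 in HFD placebo and 0.0928 ± 0.116 in HFD estradiol. Il1rn reached 0.1 in 5 HFD placebo libraries and in 1 of each other group, so its being tested rested on the difference and its values are given as a description.

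**Figure D4:**
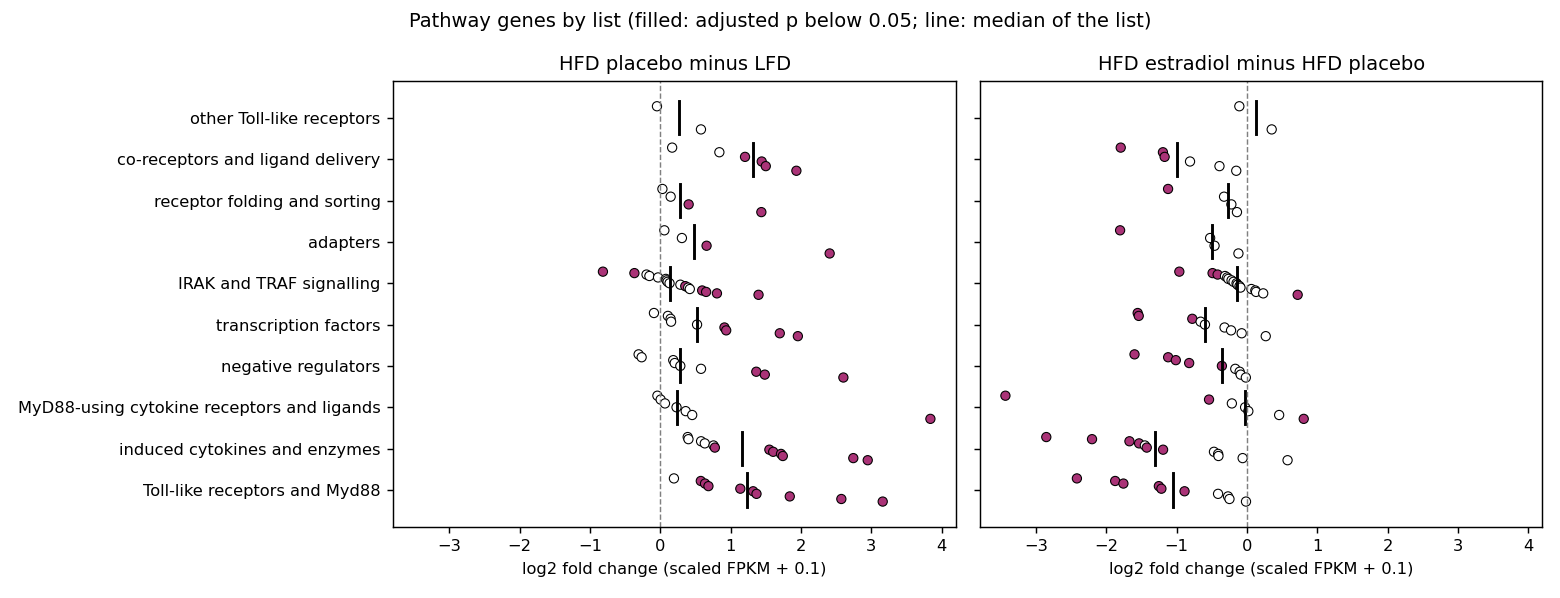
Log2 fold changes in the low-level test (horizontal axes, log2(scaled FPKM + 0.1)) of 70 pathway genes in 9 lists and of the 10 members, for HFD placebo minus LFD and HFD estradiol minus HFD placebo; filled points have a limma adjusted p below 0.05 and vertical lines are list medians. The members' medians are 1.23 and -1.05.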

How the data were processed

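Stranded libraries were prepared from periprostatic fat RNA (integrity number over 7) after removal of ribosomal RNA, per the labels' protocols. The submitters' processing notes name STAR, Cufflinks and mm10, without versions or roles. The authors deposited FPKM by gene symbol, 1 file per library. Fragment numbers were estimated here from the steps between low values, and 58.0% to 69.3% of these values per library came within 2% of 1 to 4 whole steps. The step was chosen from the same values, so that share is no check on the estimates.

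Scaling factors used the 5874 genes above 0 in every library with mean FPKM of at least 1. Limma 3.58.1 in R 4.3.3 was fitted with trend and robust moderation to all 15 libraries, with group as the only factor. The fit was also run on simulated data, with independent noise per gene and changes in HFD placebo only. Those data held no lane or depth structure, so that run does not bear on either. The members and lists were chosen with earlier results of these data known. Named pathway genes are the up to 4 tested genes per list with the smallest adjusted p in HFD placebo minus LFD, and every gene of a list of 3 or fewer. Emr1 stood for Adgre1, and 144 of 145 listed genes were found. Replicate numbers name different animals: deviations of same-numbered libraries correlated at -0.21 to 0.36. Libraries were treated as unpaired. Alternatives were other scalings, filters, pseudocounts, lane terms and single libraries left out.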

Additional observations from a re-analysis of the deposited data

Results flagged for a closer look

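In 4 of the 45 sets of 5 mice examined (the 10 genes and the 5 ratios in the 3 groups), a mouse lay far from the rest of its group by Dixon's criterion, which flags about 1 set in 20 by chance. Tlr1 in HFD placebo mouse 3 was at a scaled FPKM of 2.887, with the others from 0.725 to 0.960. Tlr9 in the same mouse was at 0.6457, with the others from 0.272 to 0.372. Tlr7 in HFD estradiol mouse 1 was at 0.8326, with the others from 0.450 to 0.518. Tlr13 in that mouse was at 0.6503, with the others from 0.161 to 0.253.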

How the results depend on the processing

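Only 3 members passed the planned filter; lowering it or dropping it gave 9 members called in HFD placebo minus LFD with either, and 6 in HFD estradiol minus HFD placebo with either, the numbers of the low-level test. Over all genes, calls in the first comparison went from 2431 to 3998 (lower filter) and 3908 (no filter). In the second they went from 1706 to 2710 and 2606. These settings tested 5615, 12693 and 18880 genes, so calls did not keep rising with the number tested. Scaling moved the split between directions: the share of called genes that were higher in HFD placebo minus LFD was 50.9% in the low-level test, 99.4% as deposited and 92.4% with a constant sum, with medians of all genes at -0.026, 0.96 and 0.35. In HFD estradiol minus HFD placebo that share was 45.9%, 5.57% and 27.2%, and in HFD estradiol minus LFD 55.2%, 97.6% and 94.9%, with medians of 0.00022, 0.67 and 0.33 in the latter. Genes called in HFD estradiol minus HFD placebo were 276 as deposited, 831 with a constant sum, 711 with lane as a term and 681 within lane 6. In the low-level test they were 611, 1327, 821 and 930 under the same settings, against 2698. For HFD estradiol minus LFD the planned count of 432 became 39 as deposited and 162 with lane as a term, and the low-level count of 495 became 163 and 100. With a constant sum 2 members were called there in each test, Tlr4 and Tlr8 in the planned one and Tlr7 and Tlr8 in the low-level one, where the median shift of all genes was in the same direction. The exact tests called 1 member there, 4 as deposited and 3 with a constant sum. Tlr7 in HFD estradiol minus HFD placebo was not called as deposited (-1.21, limma adjusted p = 0.11). Irak1 in HFD placebo minus LFD turned from -0.27 to 0.58 as deposited and 0.049 with a constant sum. The entry Mir6236 made up 33.1% to 53.1% of the FPKM sum in LFD libraries. Its share was 10.2% to 47.9% with the placebo and 15.7% to 49.9% with estradiol, and the constant sum includes it. The causes were not tested.

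With the replicate number as a block, 1 member, Tlr8, was called in HFD estradiol minus LFD in the low-level test (0.82, limma adjusted p = 0.045), and the member counts of the other comparisons were 9 and 6 as without it. The numbers give no pairing: same-numbered libraries were best correlated in 3 of 15 cases. Leaving out single libraries, HFD estradiol minus LFD had 0 to 1 members and 311 to 575 genes called in the low-level test and 0 to 2 members in the exact tests, and 3 to 8 of the 15 ratio tests passed, against 5. In the low-level test 8 to 9 members were called in HFD placebo minus LFD and 6 in HFD estradiol minus HFD placebo. The estimated 1.02 to 17.3 fragments per library limit the precision of Tlr13 in LFD.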
